A study of Mus musculus with 12 samples.

Results

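Clade B serpins are intracellular protease inhibitors, and 10 of them that are linked to the epidermis were followed here in the skin of mice with and without imiquimod (IMQ). They are Serpinb3a, Serpinb3b, Serpinb3c, Serpinb3d, Serpinb2, Serpinb5, Serpinb12, Serpinb13, Serpinb1a and Serpinb6c. These 10 genes were taken from the 27 clade B serpins listed for mouse and from the 56923 genes of the count table. Serpinb3a and Serpinb3d were chosen by their rise with IMQ in WT skin, so the WT values below describe them and were not tested. The other 8 were chosen by family and tissue, with results of these data already known.

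A serpin offers a protease an exposed loop as bait, is cut, and changes shape so that the protease is trapped. Clade B members lack a classical secretion signal and act mainly inside the cell, although several also leave it. The Serpinb3 genes are the mouse relatives of human SERPINB3 and SERPINB4, the squamous cell carcinoma antigens, which are well known for their high levels in psoriatic epidermis and which inhibit cysteine cathepsins as well as serine proteases. Serpinb2 is plasminogen activator inhibitor 2. Serpinb5 is maspin, a family member that does not act as a classical inhibitor. Serpinb12 inhibits trypsin-like proteases, Serpinb13 inhibits cysteine cathepsins, and Serpinb1a inhibits neutrophil elastase, cathepsin G and proteinase 3. Serpinb6c is one of several mouse relatives of human SERPINB6.

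RNA from back skin was sequenced for 12 female C57BL/6 mice, which were 8 to 10 weeks old and fell into 4 groups of 3 mice each. WT control and Lcn2-/- control mice received vehicle cream, and WT IMQ and Lcn2-/- IMQ mice received 5% IMQ cream, a Toll-like receptor 7 agonist that causes psoriasis-like inflammation, on the shaved back for 6 days. The WT mice were littermates of the Lcn2-/- mice. In the sample labels the genotype is a knockdown of LCN2 and the treatment of the controls is none. Nothing in the labels says that the 3 libraries of a group came from separate litters or cages, so the p-values measure the spread between these 3 mice. In whole skin, fewer cells of a type and less RNA per cell cannot be told apart.

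Lcn2, the targeted gene, was counted in every library. Its counts were 136, 201 and 86 in WT control mice and 1010, 2723 and 1572 in WT IMQ mice. In the groups labelled Lcn2-/- they were 320, 173 and 357 in control mice and 561, 511 and 830 in IMQ mice. Lcn2 stood at 11.9 ± 3.57 CPM in the control group labelled Lcn2-/- and at 6.50 ± 2.04 CPM in the WT control group (SD, n = 3). The control groups thus do not show the loss that the label names. After IMQ it stood at 38.0 ± 10.5 CPM in the group labelled Lcn2-/- and at 107 ± 66.5 CPM in the WT group. The paper likewise lists Lcn2 among the genes that were lower in Lcn2-/- lesions after IMQ. What these counts mean for the genotype was not tested. Every direction below between genotypes is therefore a direction between libraries labelled Lcn2-/- and libraries labelled WT. Library totals lay between 16448226 and 28592110 counts, and no pair of libraries within a group agreed within sampling noise. The extraction text in the labels names retinas. The summed level of 8 retina markers lay between 0.0672 and 2.67 CPM, the counts scaled to a common library size, in the 12 libraries, with 2 of the 8 at 0 in all of them, whereas 23 keratinocyte markers summed to between 7563 and 49565 CPM.

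Of the 10 genes, 8 lie in one group on chromosome 1 (GRCm38) and are protein coding. In genome order they are Serpinb5 (106861173 to 106883348), Serpinb12 (106934449 to 106957080), Serpinb13 (106980984 to 107001195), Serpinb3a (107045587 to 107052303), Serpinb3d (107078167 to 107083506), Serpinb3b (107153940 to 107278361), Serpinb3c (107271201 to 107278371) and Serpinb2 (107511423 to 107535478). Serpinb1a (32842092 to 32851185) and Serpinb6c (33879816 to 33905708) lie on chromosome 13. The 4 Serpinb3 proteins, as translated from the annotation, are close copies of one another. Serpinb3a shared 86.6% of aligned residues with Serpinb3b, 83.7% with Serpinb3c and 82.4% with Serpinb3d, whereas the closest other pair of the 10, Serpinb1a and Serpinb6c, shared 49.0%. 

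These likenesses limit how far counts of single Serpinb3 genes can be trusted. Of all stretches of 50 bases in the Serpinb3a transcript, 15.2% occur letter for letter in a transcript of another gene. The share was 14.7% for Serpinb3b, 12.2% for Serpinb3c, 13.4% for Serpinb3d, 10.4% for Serpinb6c and 3.42% for Serpinb1a, and it was 0 for the other 4. At 100 bases the share was 6.58% for Serpinb3a, all of it with the pseudogene Gm8080, and at most 0.515% for the others. Within the Serpinb3 group only Serpinb3b and Serpinb3c shared stretches of 100 bases. The paper describes paired reads of 150 bases, a length that was not compared here. The annotated Serpinb3b gene also runs across Serpinb3c and shares 35 exonic bases with it, and Serpinb2 shares 291 exonic bases with Serpinb10 on the same strand. How the authors' counting treated reads with several matches is not given in the sources used here, so the split between Serpinb3 genes is uncertain.

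The sequences in front of the 4 Serpinb3 genes are shown because these 4 genes are close copies whose levels after IMQ lay far apart. Each is the 250 bases before the RefSeq start site (GRCm38.p6), 5′ to 3′ along the gene, with capitals marking matches to the TATA box TATAAA or to the C/EBP motif TTNNGCAA on either strand.
Serpinb3a, chr1:107052304-107052553, minus strand: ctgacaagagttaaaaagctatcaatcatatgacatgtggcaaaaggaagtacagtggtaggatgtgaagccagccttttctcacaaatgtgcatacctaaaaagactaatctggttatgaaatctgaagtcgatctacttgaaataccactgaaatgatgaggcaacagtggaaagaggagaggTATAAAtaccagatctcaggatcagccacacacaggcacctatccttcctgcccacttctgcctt
Serpinb3b, chr1:107161115-107161364, minus strand: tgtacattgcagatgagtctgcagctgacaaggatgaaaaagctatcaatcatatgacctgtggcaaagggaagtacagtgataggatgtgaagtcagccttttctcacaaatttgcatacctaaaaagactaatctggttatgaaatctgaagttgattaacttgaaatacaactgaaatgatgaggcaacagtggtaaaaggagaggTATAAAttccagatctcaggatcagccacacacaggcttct
Serpinb3c, chr1:107278372-107278621, minus strand: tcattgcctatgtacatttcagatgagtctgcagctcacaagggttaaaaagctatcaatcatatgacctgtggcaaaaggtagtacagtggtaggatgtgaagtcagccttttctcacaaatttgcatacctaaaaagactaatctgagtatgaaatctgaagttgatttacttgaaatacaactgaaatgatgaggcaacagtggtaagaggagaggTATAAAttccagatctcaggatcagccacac
Serpinb3d, chr1:107083481-107083730, minus strand: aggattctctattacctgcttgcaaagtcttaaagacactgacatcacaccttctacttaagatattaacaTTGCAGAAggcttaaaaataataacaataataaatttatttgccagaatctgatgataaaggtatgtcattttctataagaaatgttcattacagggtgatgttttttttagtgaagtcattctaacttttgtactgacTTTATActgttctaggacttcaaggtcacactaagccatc
The promoters of Serpinb3a, Serpinb3b and Serpinb3c were nearly the same sequence, with 93.1% to 96.2% of aligned bases identical over windows of 300 bases that also hold the first 50 bases of the gene. Each held a TATAAA in nearly the same surrounding letters, 65, 41 and 31 bases before its listed start. The Serpinb3d window was no more like them (68.6% to 70.7%) than unrelated members were like each other. Its transcript as annotated is 1216 bases long for 387 residues, so little of it lies outside the coding part and the listed start may not be where transcription begins. Of 32851 RefSeq promoters of this length, 13.6% held TATAAA and 10.8% held the C/EBP letters. The AP-1 letters TGANTCA, which 7.81% of these promoters held, occurred in Serpinb2, Serpinb5 and Serpinb12, and the STAT letters TTCNNNGAA, held by 8.30%, occurred in Serpinb2, all on either strand. RefSeq promoters were found for 8 of the 10 genes, and these matches describe letters and not sites.

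In WT control skin Serpinb5 stood first of the 10 genes. Levels between genes were compared per kilobase of exon. Serpinb5 stood at 87.2 ± 27.0 CPM per kb (SD, n = 3), ahead of Serpinb2 at 27.4 ± 7.68 and Serpinb1a at 21.1 ± 8.75, and the last 2 overlapped. Below them came Serpinb6c (6.48 ± 1.13 CPM per kb), then Serpinb3b (2.38 ± 0.556) and Serpinb12 (1.69 ± 0.584), whose mice overlapped. Serpinb13 followed at 0.498 ± 0.365 CPM per kb. Serpinb3a, Serpinb3c and Serpinb3d were close to absent, with 3, 2 and 0 counts summed over the 3 mice.

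After IMQ the order in WT skin was a different one. Serpinb3a, at 335 ± 42.7 CPM per kb, and Serpinb2, at 326 ± 33.2, now stood first and overlapped, and Serpinb5 (249.9 ± 36.4) came after them. Serpinb3b reached 135 ± 15.95 CPM per kb, Serpinb12 100.4 ± 22.5, Serpinb1a 56.1 ± 3.93 and Serpinb6c 48.5 ± 16.6. Serpinb3d (26.1 ± 10.02) and Serpinb3c (1.11 ± 0.267) remained far below their 2 paralogs. Serpinb13 was last at 0.0992 ± 0.0397 CPM per kb.

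**Figure D1:**
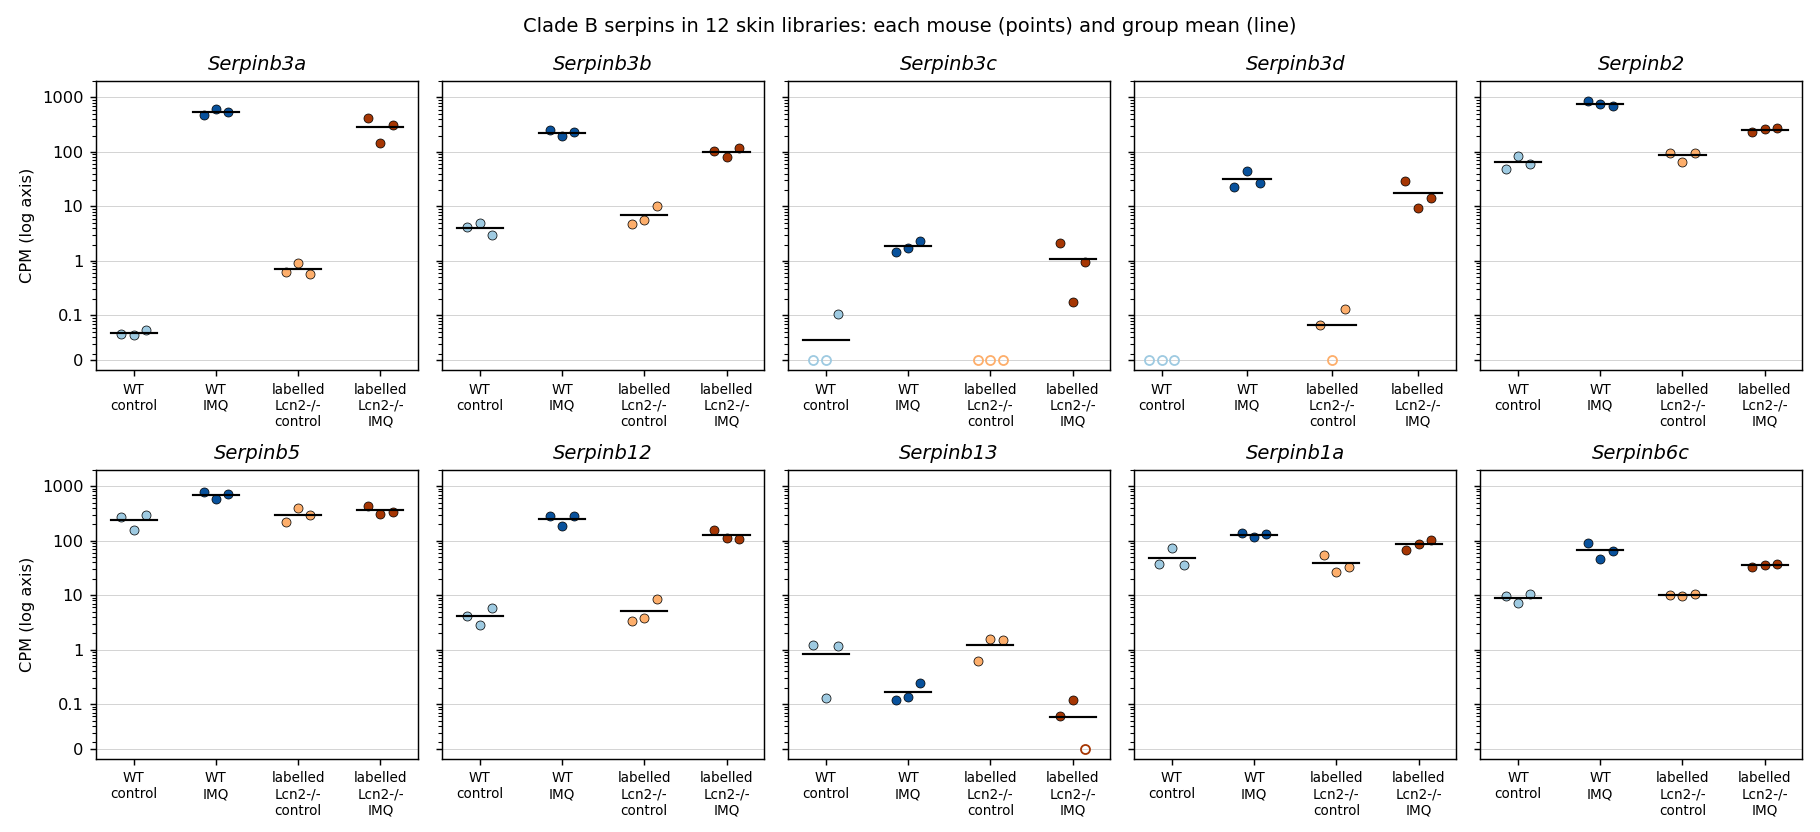
CPM (log axis, 0 drawn at the bottom as an open circle) of each of the 10 clade B serpins in each of the 12 mice, with the group mean as a line. Group means are higher in IMQ mice than in their own controls for every gene but Serpinb13, which runs the other way. Serpinb5 overlaps between control and IMQ mice labelled Lcn2-/-.

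In WT skin the 4 Serpinb3 genes, of which Serpinb3a and Serpinb3d were picked for their rise, started from near 0 or low levels. After IMQ Serpinb3a and Serpinb3b came to rank 1 and 4 of the 10 per kilobase. For Serpinb3a, 1, 1 and 1 counts in the controls stood against 7961, 9227 and 11048 after IMQ. The ratio of the pooled CPM was 11526, with a 95% counting interval from 3943.5 to 55892, a width that comes from the 3 control counts. Serpinb3d was at 0 in every control mouse and had 375, 679 and 558 counts after IMQ, at least 658-fold more, taking 3 counts over the control group as the floor. Serpinb3c, with 0, 0 and 2 counts against 24, 26 and 48, gave a ratio of 60.0 (16.2 to 502). Serpinb3b was the one paralog with a clear basal level. Its controls had 89, 114 and 57 counts and its IMQ mice 4100, 2930 and 4881, or 4.01 ± 0.939 against 227 ± 26.9 CPM, a log2 fold change of 5.81 (SE 0.32).

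The other members of the chromosome 1 group differed by less in WT skin, except Serpinb12. Serpinb12 went from 88, 66 and 108 counts to 4748, 2768 and 5756, with a log2 fold change of 5.90 (SE 0.42). Serpinb2 went from 1042, 1949 and 1150 to 13968, 11281 and 14256 counts (3.57, SE 0.23). Serpinb5, with 5913, 3601 and 5485 counts before and 12658, 8555 and 14867 counts after IMQ, differed by 1.52 (SE 0.26) on the log2 scale. On chromosome 13, Serpinb6c went from 205, 169 and 194 to 1523, 694 and 1313 counts (2.91, SE 0.23), and Serpinb1a from 807, 1670 and 686 to 2252, 1771 and 2728 (1.41, SE 0.30). Control and IMQ mice did not overlap in CPM for Serpinb12, Serpinb2, Serpinb5, Serpinb6c or Serpinb1a. How many of all tested genes stood apart in this way was not counted. Serpinb13 was the exception in direction, with 26, 3 and 22 control counts and 2, 2 and 5 after IMQ, and control mouse 2 lay among the IMQ mice. A gene was called when its fold change was above 2 and its adjusted p was under 0.05 (edgeR quasi-likelihood test, adjusted over all 18529 tested genes by Benjamini-Hochberg). By this rule 9 of the 10 were higher and 0 lower, where 7.15% of all tested genes were called higher and 7.77% lower. Since 2 of the 10 genes were picked for their rise, nothing is read from that count. Results of this contrast were also known when the others were listed.

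The Serpinb3 group had a different make-up in IMQ and control mice. Summed over the 4 genes, which removes the split of shared reads within the group, the level was 4.10 ± 0.878 CPM in WT control mice and 807 ± 55.1 CPM in WT IMQ mice. Serpinb3b held 95% to 99.1% of the summed counts in the WT control mice. In the WT IMQ mice Serpinb3a held 63.9% to 71.7% and Serpinb3b 22.8% to 32.9%. In mice labelled Lcn2-/- the sum was 7.68 ± 3.03 CPM in controls and 410 ± 162 CPM after IMQ, and the share of Serpinb3a went from between 5.22% and 13.9% to between 62.0% and 75.6%. Serpinb3a was picked for its rise, so this shift in its share follows in part from the choice and is given as a description, and it carries the uncertain split of shared reads. The Wilson 95% intervals of its share in IMQ mice reached down to 60.5%, and those in control mice up to 21.2%, for counting error only.

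**Figure D2:**
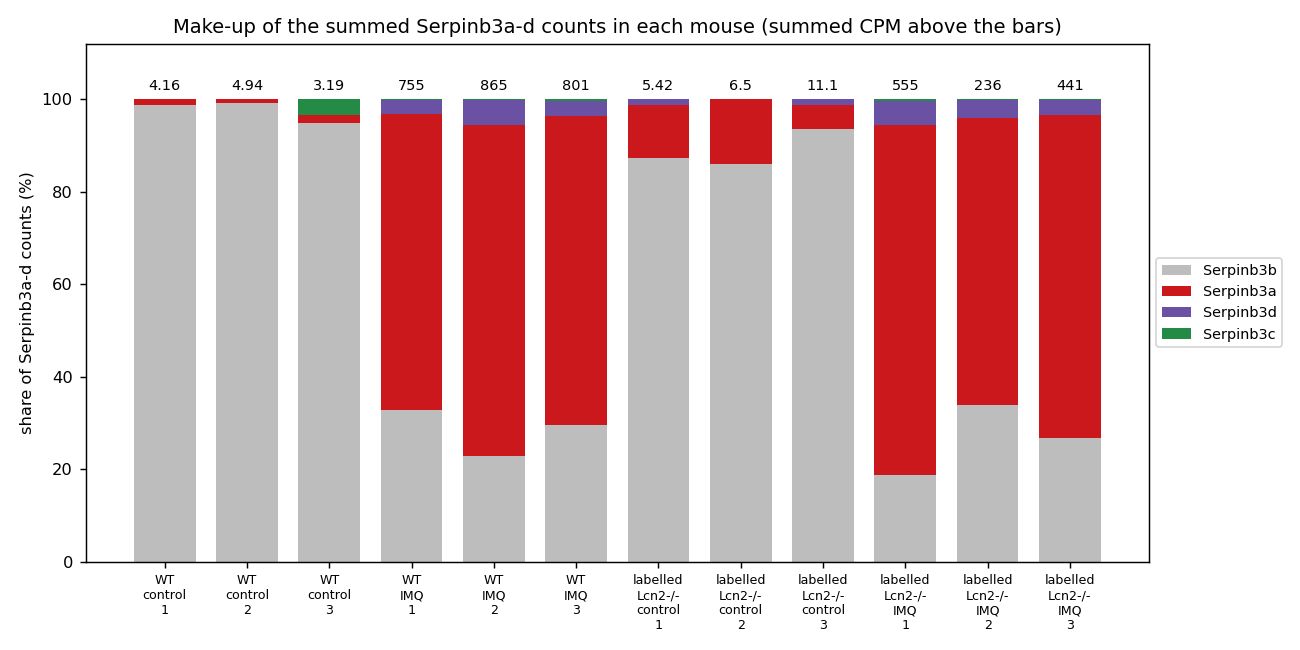
Share (%) of the summed Serpinb3a, Serpinb3b, Serpinb3c and Serpinb3d counts in each mouse, stacked to 100%, with the summed CPM printed above each bar. Serpinb3b fills most of the bar in the 6 control mice and Serpinb3a most of it in the 6 IMQ mice.

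Serpinb3a and Serpinb3d were picked for their rise, so their values in the mice labelled Lcn2-/- are given without a test. The other 8 genes were tested, although earlier results of these mice were also known when the genes were listed. Of these 8, 6 were called higher with IMQ and 1 lower, where 7.38% of all tested genes were called higher and 6.27% lower. Their median log2 fold change was 1.69. Over all tested genes the median was -0.05, and over the 10 genes, with the 2 picked ones included, it was 2.84. Serpinb3c enters this median with a fitted value that depends on the prior count, but its lower bound also lies above the middle of the list, which leaves the median of 2.84 as it is.

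All 4 Serpinb3 genes rose in these mice. Their fold changes cannot be fully ranked, since Serpinb3c gave a bound and the interval of Serpinb3d was wide. That of Serpinb3b lay below those of Serpinb3a and Serpinb3d, the 2 genes picked for their rise. Serpinb3a went from 19, 17 and 13 counts to 6867, 2500 and 5141, or 0.703 ± 0.177 against 291 ± 137 CPM (log2 fold change 8.71, SE 0.42). IMQ mouse 2 was lowest for each of the 4 Serpinb3 genes. Serpinb3d had 2, 0 and 3 counts against 477, 160 and 237, a ratio of the pooled CPM of 249.6 (counting interval 107 to 770). Serpinb3b rose from 144, 105 and 233 counts to 1703, 1369 and 1962 (3.87, SE 0.29, adjusted p = 1.79e-05). Serpinb3c was at 0 in its 3 controls and at 35, 3 and 16 counts after IMQ, at least 25.7-fold more (adjusted p = 0.00618). The control and IMQ mice were apart for each of these genes, which was not counted over all tested genes.

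Serpinb12, the trypsin-like protease inhibitor, rose in these mice from 102, 70 and 192 counts to 2596, 1882 and 1825 (4.60, SE 0.39, adjusted p = 2.88e-05). The inhibitor of plasminogen activators, Serpinb2, went from 2969, 1221 and 2164 counts to 3726, 4599 and 4569. In CPM the control mice lay between 65.1 and 97.5 and the IMQ mice between 227 and 274, and the log2 fold change was 1.57 (SE 0.21, adjusted p = 0.000487). Serpinb6c rose from 307, 183 and 236 counts to 536, 621 and 624 (1.81, SE 0.22, adjusted p = 0.000257). The IMQ values of Serpinb12, Serpinb2 and Serpinb6c stood clear of their control values, which was not counted over all tested genes.

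Serpinb5, which stood first of the 10 genes in control skin, was not called in these mice. Its counts were 6554, 7307 and 6656 in controls and 6936, 5374 and 5709 after IMQ, which is 301 ± 87.1 against 360 ± 56.8 CPM, and the mice overlapped. The log2 difference was 0.26 with a 95% interval from -0.30 to 0.82 (adjusted p = 0.487). Serpinb1a rose from 1651, 509 and 737 to 1100, 1466 and 1725 counts, or from 38.1 ± 14.3 to 85.4 ± 18.1 CPM (1.16, SE 0.30, adjusted p = 0.0163). This call was lost without control mouse 2, control mouse 3 or IMQ mouse 3 (adjusted p up to 0.0687, for log2 fold changes of 0.97 or more) and with no filter on low counts (0.0632). Serpinb1a is also abundant in neutrophils, and 12 neutrophil markers, none of them at 0, summed to 34.3 to 78.8 CPM in these control mice and 3809 to 10504 CPM in the IMQ mice. The most abundant markers weigh most in this sum, where 1 gene had up to 96798 counts in an IMQ mouse. Over the 10 markers tested the median log2 fold change was 3.91, and all 10 were called higher, where 7.38% of all tested genes were. The part of neutrophils in the change of Serpinb1a was not tested.

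Serpinb13 fell in the mice labelled Lcn2-/-, from 19, 29 and 34 counts to 1, 2 and 0. The ratio of the pooled CPM was 0.0522 (0.0106 to 0.158), the adjusted p was 0.00906, and it stayed under 0.05 without each of the 6 mice in turn. Hair shaft genes moved with it. The 10 of 11 listed hair shaft markers that were tested were all called lower in this contrast, and their summed level lay between 48.8 and 4533 CPM in the control mice and between 12.6 and 16.4 CPM in the IMQ mice. In WT mice the same sum lay between 14.7 and 826 CPM in controls and between 17.03 and 58.1 CPM after IMQ. The part of hair in the change of Serpinb13 was not tested.

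**Figure D3:**
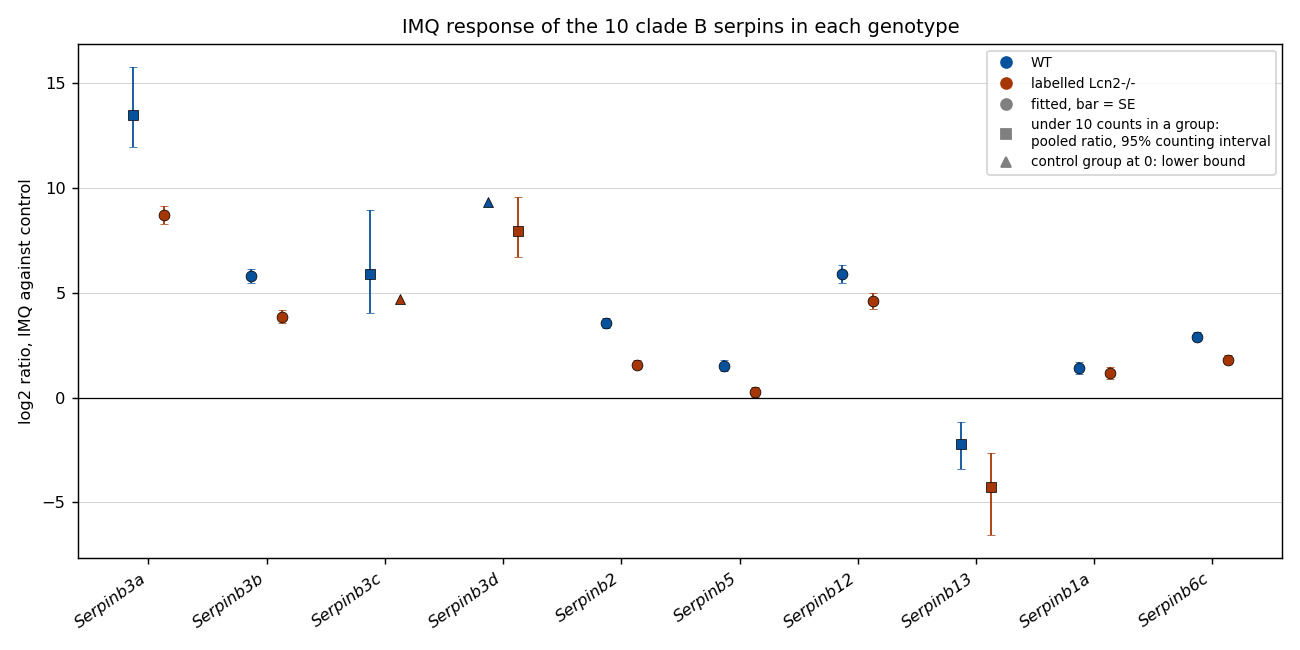
Log2 ratio of IMQ to control for each of the 10 serpins in WT mice (blue) and in mice labelled Lcn2-/- (brown). Circles are fitted values with their SE, squares are pooled ratios with 95% counting intervals where a group had under 10 counts, and triangles are lower bounds where the control group was at 0. Serpinb3a and Serpinb3d lie highest, and Serpinb13 lies below 0 in both genotypes.

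After IMQ, 2 of the 8 serpins that could be tested were called lower in the mice labelled Lcn2-/- than in WT mice. None of the 8 was called higher, by edgeR or by DESeq2, and the log2 difference of each was below 0, 5 of them with an unadjusted p under 0.05. Over all tested genes 0.739% were called lower and 0.766% higher. By edgeR 4999 of all 18529 tested genes had an unadjusted p under 0.05, and 9494 had a log2 difference below 0. Serpinb2 differed most clearly. WT IMQ mice had 765 ± 78.1 CPM and Lcn2-/- labelled IMQ mice 257 ± 25.5 CPM, a log2 difference of -1.57 (SE 0.21, adjusted p = 0.0215). Serpinb3b stood at 227 ± 26.9 against 101 ± 19.0 CPM (-1.18, SE 0.26, adjusted p = 0.0353). For both genes the lowest WT mouse was above the highest mouse labelled Lcn2-/-.

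Serpinb6c was lower by less than the fold that defines a call, at 67.5 ± 23.1 against 35.5 ± 2.45 CPM (-0.93, SE 0.21, adjusted p = 0.0374). Serpinb5, Serpinb12 and Serpinb1a did not pass, although their groups were apart. Serpinb5 had 687 ± 100.03 against 360 ± 56.8 CPM (-0.93, SE 0.26, adjusted p = 0.0593). Serpinb12 had 251 ± 56.3 against 126 ± 28.2 CPM (-0.99, SE 0.33, adjusted p = 0.0925). Serpinb1a had 129 ± 9.06 against 85.4 ± 18.1 CPM (-0.60, 95% interval -1.24 to 0.05, adjusted p = 0.219). Too few counts were left to tell for Serpinb13 (9 against 3 in all, adjusted p = 0.448). Serpinb3c (98 against 54 counts in all, adjusted p = 0.553) spread widely between the IMQ mice labelled Lcn2-/-, at 1.09 ± 0.987 CPM. For the 2 genes picked for their rise the levels are given without a test. Serpinb3a stood at 546 ± 69.6 against 291 ± 137 CPM with groups apart, and Serpinb3d at 31.8 ± 12.2 against 17.6 ± 10.3 CPM with groups that overlapped.

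The calls changed when 1 mouse was left out. In the fit that leaves out WT IMQ mouse 2, 4 of the 8 were called lower. Without WT IMQ mouse 1 or 3, or without Lcn2-/- labelled IMQ mouse 1, 2 or 3, the count was 0. The size of the difference moved little. For Serpinb2 it lay between -1.64 and -1.49 with adjusted p between 0.0055 and 0.13, and for Serpinb3b between -1.30 and -1.03 with adjusted p between 0.0207 and 0.168.

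Keratinocyte genes as a whole moved with these differences. The 23 keratinocyte markers, all of them detected, summed to 37787 to 49565 CPM in WT IMQ mice and 22456 to 34611 CPM in IMQ mice labelled Lcn2-/-, and 22 of the 23 were lower in the latter, with a median log2 difference of -0.66 and 1 called. Fibroblast markers went the other way, with 10 of 10 higher, a median of 0.88 and 3 called. The log2 differences of Serpinb2 (-1.57), Serpinb13 (-1.42, at few counts) and Serpinb3b (-1.18) lay below that of every one of the 23 keratinocyte markers. The lowest marker was at -1.09. Serpinb5, Serpinb6c, Serpinb12, Serpinb1a and Serpinb3c (-0.76) lay within the range of the markers. The 95% interval of Serpinb3b (-1.75 to -0.61) held both the lowest marker and the marker median, so Serpinb3b cannot be told apart from them. That of Serpinb13 (-3.93 to 1.1) held both as well, whereas that of Serpinb2 (-2.03 to -1.12) ended below -1.09. The error of the marker values was not taken into account. The part of keratinocyte content in the serpin values was not tested.

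The change with IMQ itself was compared between genotypes by the difference of the log2 responses (interaction). It was called for the same 2 genes, and both were negative, with 0.572% of all tested genes called lower and 1.07% higher. None of the 8 was called higher by edgeR, where 5 of the 8 had an unadjusted p under 0.05, all of them negative, and DESeq2 called 4 lower. By edgeR 4470 of all 18529 tested genes had an unadjusted p under 0.05, and 9539 had a difference below 0. The response of Serpinb2 was 3.57 in WT mice and 1.57 in mice labelled Lcn2-/-, a difference of -2.0 (SE 0.29, adjusted p = 0.0188). The response of Serpinb3b was 5.81 against 3.87, a difference of -1.95 (SE 0.39, adjusted p = 0.0375). For Serpinb6c the difference was -1.10 (SE 0.30, adjusted p = 0.0756), for Serpinb5 -1.26 (SE 0.37, adjusted p = 0.0839), and for Serpinb12 -1.31 (SE 0.50, adjusted p = 0.145). Serpinb1a, at -0.25 (95% interval -1.16 to 0.67, adjusted p = 0.751), could have differed in either direction, and so could Serpinb13, at -1.97 (-4.91 to 0.97, adjusted p = 0.384). Control groups at 0 leave no usable difference for Serpinb3c and Serpinb3d. With each of the 12 mice left out in turn the count called was 0 to 4, with 4 without WT IMQ mouse 2, 0 without WT IMQ mouse 1 or 3, Lcn2-/- labelled IMQ mouse 1 or 2 or control mouse 3, and 1 without WT control mouse 1 or 2, Lcn2-/- labelled control mouse 2 or IMQ mouse 3. The lowest keratinocyte marker had a difference of -1.81 and their median was -0.80, with 21 of 23 below 0.

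**Figure D4:**
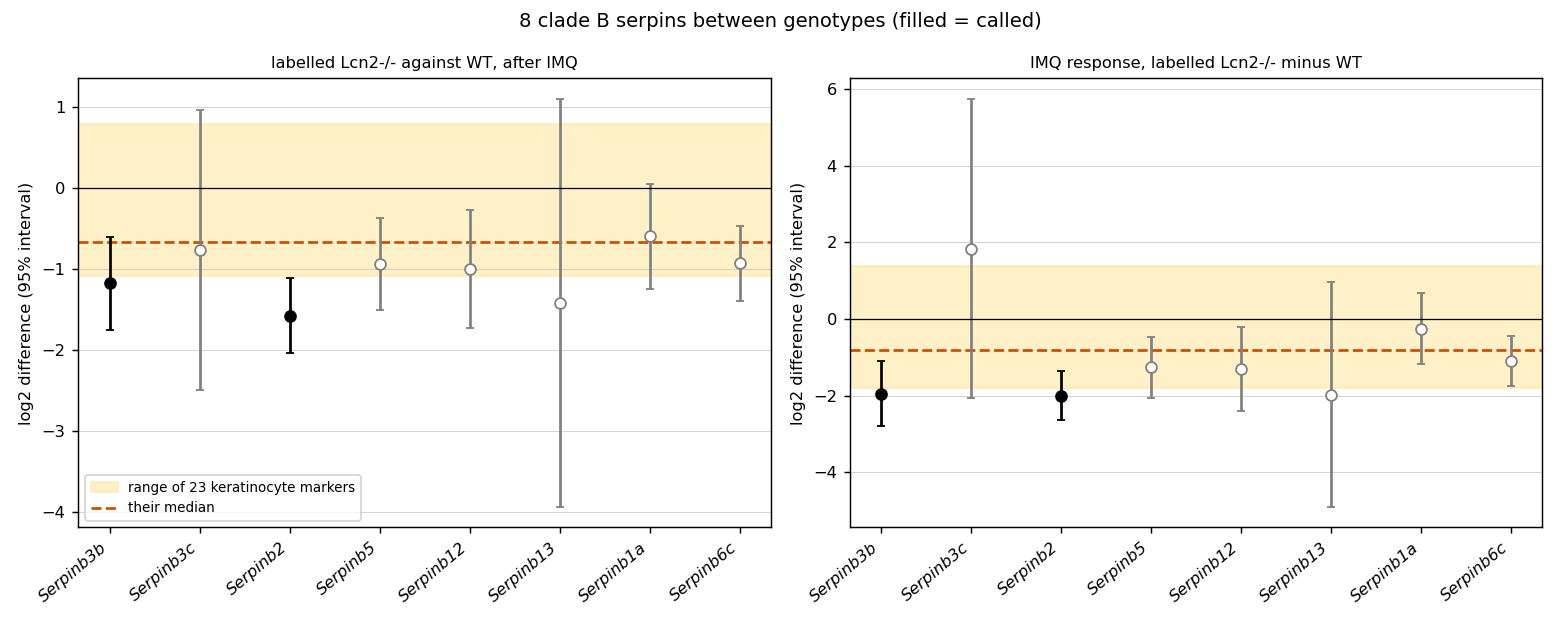
Log2 differences with 95% intervals for the 8 tested serpins between IMQ mice labelled Lcn2-/- and WT IMQ mice (left) and between their responses to IMQ (right), with called genes filled. The shaded band is the range of 23 keratinocyte markers and the dashed line their median (-0.66 left, -0.80 right). Serpinb2 and Serpinb3b are the called genes in both panels.

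Between the control groups none of the 8 tested serpins was called in either direction by edgeR or by DESeq2, and 1, Serpinb3b, had an unadjusted p under 0.05. By edgeR 1223 of all 18529 tested genes had an unadjusted p under 0.05. One gene of all those tested was called higher and 1 lower, which is 0.0054% each. Serpinb3b had 4.01 ± 0.939 CPM in WT and 6.91 ± 3.06 CPM in mice labelled Lcn2-/- (log2 difference 0.77, SE 0.29, adjusted p = 0.681). Serpinb3a, which is given without a test, had 1, 1 and 1 counts in WT control mice and 19, 17 and 13 in control mice labelled Lcn2-/-. The ratio was 14.5 with a counting interval from 4.69 to 72.9, and the groups were apart. Its fold changes with IMQ in the 2 genotypes start from these different control levels and were not compared. Serpinb2 (64.4 ± 18.0 against 86.4 ± 18.5 CPM) and Serpinb5 (240 ± 74.3 against 301 ± 87.1 CPM) overlapped between the controls.

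Along both gene groups the neighbours did not share one direction. Of the 17 other clade B serpins listed, 11 were tested, 2 were called higher and 2 lower in WT mice, and 2 higher and 3 lower in mice labelled Lcn2-/-. Over all tested genes 7.15% were called higher and 7.77% lower in WT mice, and 7.38% and 6.27% in mice labelled Lcn2-/-. In the latter Serpinb11 (2.31, SE 0.31, adjusted p = 0.000546) and Serpinb10 (1.36, SE 0.23, adjusted p = 0.00203), both in the chromosome 1 group, rose, and Serpinb10 shares exonic bases with Serpinb2. Serpinb7, which lies between Serpinb11 and Serpinb2, fell (-1.34, SE 0.37, adjusted p = 0.021). This call was lost without control mouse 3 or IMQ mouse 2 or 3 (adjusted p up to 0.0712) and with no filter on low counts (0.0684). The largest fall was on chromosome 13, where Serpinb6e, a paralog of Serpinb6c, went from 4212, 1359 and 3672 counts to 8, 20 and 7 (-7.47, SE 0.48, adjusted p = 8.36e-06). In WT mice it had 2272, 3746 and 2480 counts in controls and 5, 7 and 1 after IMQ. The log2 fold changes of Serpinb6c and Serpinb6e thus had opposite signs in both genotypes although they share stretches of sequence. Serpinb1c, a paralog of Serpinb1a, fell in the same way (-3.51, SE 0.78, adjusted p = 0.00802). No other clade B serpin was called between genotypes after IMQ, where 2 of the 11 had an unadjusted p under 0.05, between controls, where 1 had, or in the difference of responses, where 3 had. Over all 18529 tested genes these counts were 4999, 1223 and 4470 by edgeR.

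**Figure D5:**
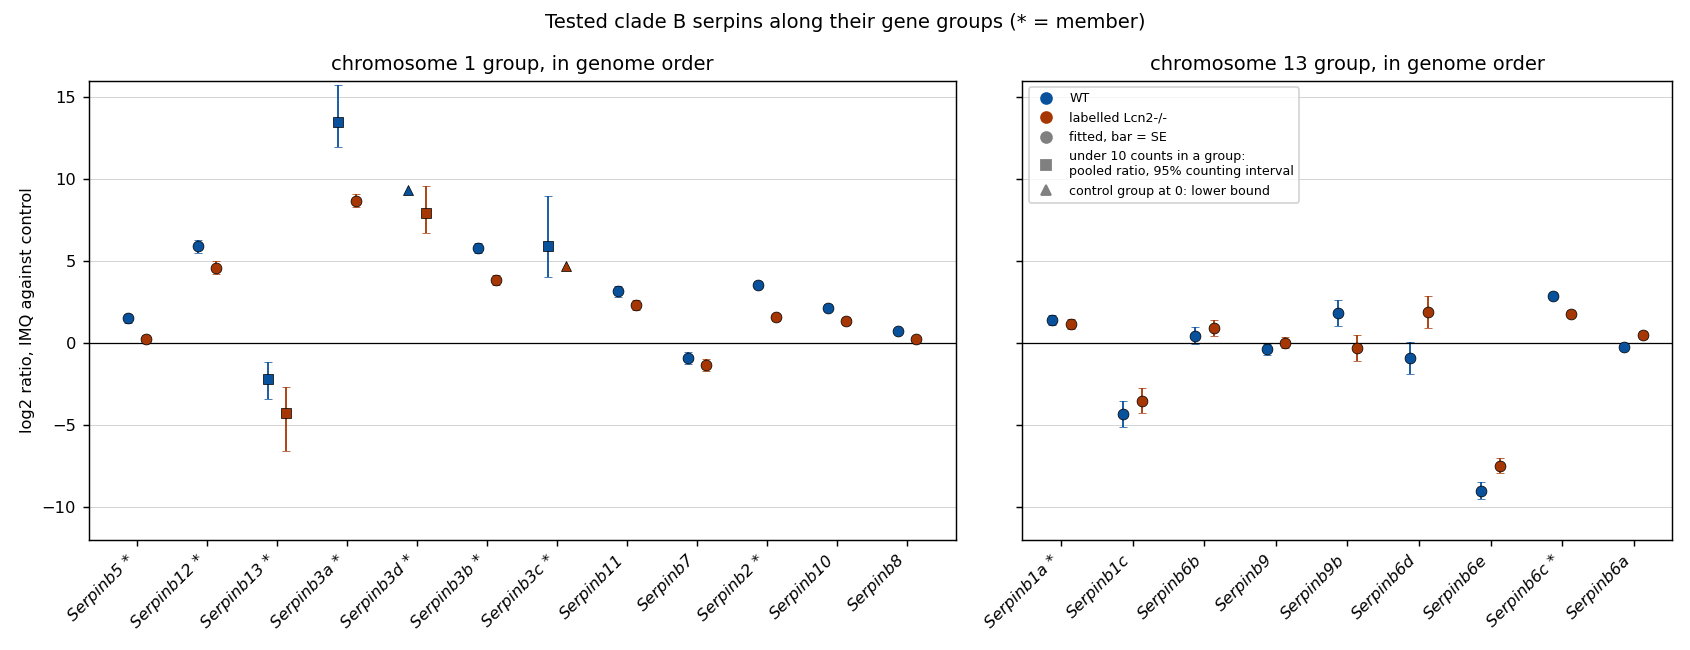
Log2 ratio of IMQ to control for the tested clade B serpins, placed in genome order within the chromosome 1 group (left) and the chromosome 13 group (right), in WT mice (blue) and mice labelled Lcn2-/- (brown). Asterisks mark the 10 genes followed here, and symbols are as in the plot of the IMQ responses. Serpinb13, Serpinb7, Serpinb1c and Serpinb6e lie below 0 in both genotypes, beside genes that lie above it.

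Of 13 listed proteases that clade B serpins are known to inhibit, 12 were tested, and 0 were called higher and 1 lower in WT mice (edgeR, 5 with an unadjusted p under 0.05, against 7508 of all 18529 tested genes). The gene called lower was Prtn3, which codes for proteinase 3, at 4.81 ± 3.71 CPM in WT control mice and 1.11 ± 0.805 CPM in WT IMQ mice. Its log2 fold change was -2.14 (SE 0.71, edgeR, adjusted p = 0.0424). Of all tested genes 7.15% were called higher and 7.77% lower in WT mice, and 7.38% and 6.27% in mice labelled Lcn2-/-. In mice labelled Lcn2-/- 6 were called higher and 0 lower, namely the cysteine cathepsins Ctss (1.61, SE 0.33), Ctsh (1.43, SE 0.24), Ctsl (1.08, SE 0.18), Ctsb (1.06, SE 0.26) and Ctsk (1.04, SE 0.20) and the mast cell chymase Cma1 (1.29, SE 0.24), with adjusted p between 0.0017 and 0.0131. With each of these 6 mice left out in turn, 4 of the 6 kept their call, while Ctsb lost it without control mouse 3 or IMQ mouse 3 and Ctsk, which fell under the fold that defines a call, without control mouse 2 or IMQ mouse 1. Ctss and other cathepsins are abundant in macrophages, and 10 of 10 macrophage markers were called higher in this contrast, which was not separated from the protease values. The plasminogen activators Plau (0.41, SE 0.24) and Plat (0.39, SE 0.16), the targets of Serpinb2, were not called. Between genotypes after IMQ none of the 12 was called, 5 had an unadjusted p under 0.05, and 11 of the 12 had a log2 difference above 0. By edgeR 4999 of all 18529 tested genes had an unadjusted p under 0.05, and 9019 had a log2 difference above 0.

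Of 22 other protease inhibitors of skin, all of them tested, 11 were called higher and 2 lower in WT mice, and 10 higher and 2 lower in mice labelled Lcn2-/-. The shares of all tested genes were 7.15% higher and 7.77% lower in WT mice, and 7.38% and 6.27% in mice labelled Lcn2-/-. In the latter the cysteine protease inhibitors of the stefin A family led, with Stfa1 at 7.66 (SE 0.63, adjusted p = 2.3e-05), Stfa2 at 6.77 (SE 0.31), Stfa2l1 at 6.42 (SE 1.00) and Stfa3 at 5.49 (SE 0.50). Slpi, an inhibitor of neutrophil elastase, rose by 4.58 (SE 0.31) and Wfdc12 by 3.54 (SE 0.39). All 10 tested neutrophil markers were also called higher in this contrast, and the part of neutrophils in these values was not tested. With each of the 6 mice labelled Lcn2-/- left out in turn, 10 of the 12 called genes kept their call in every fit. The 2 called lower did not, as Wfdc18 kept its call in 3 of the 6 fits and Cst6 in 5. Stefin A genes are close copies of one another, so the split between them is uncertain.

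The genes whose pattern over the 12 mice was nearest to each serpin were found among all 18529 tested genes. Nearness was the root mean square difference of log2 CPM after each gene was centred on its mean. Serpinb3a was nearest to the cornified envelope gene Sprr2b (0.83), to Sprr2d (0.99) and to the alarmin S100a9 (1.00). Serpinb3d was nearest to Stfa2 (0.71), Il19 (0.71) and BC117090 (0.73). For Serpinb3b the nearest was Rptn, which codes for repetin of the cornified envelope (0.30), and for Serpinb12 the kallikrein Klk13 (0.44). Serpinb5 was nearest to the desmosomal Pkp3 (0.12), Serpinb2 to Gk (0.36), Serpinb6c to Tmem125 (0.22) and Serpinb3c, at few counts, to an unnamed gene (0.44). The nearest gene to Serpinb1a was 6430548M08Rik (0.25), followed by Thbd (0.25). Serpinb13 stood apart from the rest, with Gm47063 (0.30) and Tyr, the tyrosinase of pigment cells (0.44), as its nearest genes. Within the family Serpinb3b and Serpinb12 (0.48) and Serpinb2 and Serpinb6c (0.44) were nearest to each other. All 12 mice fall into control and IMQ groups, so nearness here mainly reflects the size of the change with IMQ.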

How the data were processed

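The authors deposited 1 table of raw counts of reads per Ensembl gene for 12 libraries of mouse back skin, from ribosome-depleted RNA. The submitters' processing notes name HISAT and mm8. The counter, the annotation and the strand setting are not given in the sources used here. Names, exon lengths and positions came from GENCODE M21 (GRCm38), which holds 52073 of 56923 identifiers (91.5%), and the rest hold 0.567% of counts. The table was used as deposited.

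Library totals of 16448226 to 28592110 counts set the precision. Intervals and floors (3 counts over a group) cover counting error only. Tests used edgeR 4.0.16 in R 4.3.3, with TMM factors and a robust quasi-likelihood model of the 4 groups fitted to the 12 mice together, on 18529 genes left by filterByExpr (at least 10 counts, 15 in total), with Benjamini-Hochberg adjustment. A call needed a fold change above 2 and an adjusted p under 0.05. CPM values used TMM library sizes. Pooled ratios used counts summed over a group.

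The 10 genes, and the lists of proteases, inhibitors and markers, were chosen with earlier results of these data known. By rule the text names all 10 serpins, up to 6 called genes per list and contrast, and genes from the 3 nearest to each, of which 1 to 3 are printed. Most listed genes called in WT mice are given as counts only. Alternatives were DESeq2 1.42.0, RLE size factors, the compared mice only, other filters, the replicate block, each mouse left out, no fold threshold and unadjusted p. Scripts were tested on simulated counts. Promoters came from RefSeq, and proteins were translated from the annotation. Figures were drawn with matplotlib 3.10.9.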

Additional observations from a re-analysis of the deposited data

Results flagged for a closer look

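The response of Serpinb2 to IMQ differed between the genotypes by -2.0 on the log2 scale (labelled Lcn2-/- minus WT, SE 0.29, edgeR interaction, adjusted p = 0.0188). That of Serpinb3b differed by -1.95 (SE 0.39, adjusted p = 0.0375). Among the other protease inhibitors of skin the difference was 1.497 for Serpinf1 (SE 0.32, adjusted p = 0.0431), the gene for pigment epithelium-derived factor, and 0.97 for Serpinh1 (SE 0.22, adjusted p = 0.045), a collagen chaperone. Both of these genes are abundant in fibroblasts, and all 10 fibroblast markers had a difference above 0, with a median of 0.92. Their part in these values was not tested. Groups of 3 mice are too small for a check of single outlying mice.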

How the results depend on the processing

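Of the values for single serpins across the alternatives, 117 of 119 in WT mice and 115 of 119 in mice labelled Lcn2-/- kept their direction and side of the threshold, and all kept their direction. Between genotypes after IMQ 96 values kept both, 17 lost an adjusted p under 0.05 and 6 gained it. For the difference of responses 139 kept both, 23 lost it, 6 gained it and 2 changed direction. In WT mice the count called lower was 1 in place of 0 with DESeq2 and with unadjusted p, and 0 to 1 with a mouse left out, the gene being Serpinb13. Between genotypes after IMQ the count called lower was 2, and it was 1 with the replicate block and 0 to 4 with a mouse left out. For the difference of responses it was 2, and it was 4 with DESeq2, 5 with unadjusted p, 0 with the replicate block and 0 to 4 with a mouse left out. Same-numbered mice are different animals, and over 18 pairs the correlation of their deviations was -0.0507 on average (highest 0.199, 1 pair over 0.1), so the numbers do not pair them. Differences that did not pass the test lost or changed their sign in 5 of these fits, between controls for Serpinb3c (log2 difference -3.13 to 0.0, the highest without WT control mouse 3), Serpinb12 (-0.25 to 0.59, the lowest without Lcn2-/- labelled control mouse 3) and Serpinb1a (-0.69 to 0.075, the highest without WT control mouse 2), and among the responses for Serpinb3c (-0.76 to 2.39, the lowest without WT control mouse 3) and Serpinb1a (-0.65 to 0.10, the highest without Lcn2-/- labelled control mouse 1). Over all genes, the counts called between genotypes after IMQ (142 higher, 137 lower) lay between 34 and 574 and between 36 and 621 under other settings, and between 0 and 576 and 0 and 537 with a mouse left out. Those of the responses (199 and 106) lay between 7 and 1122 and between 3 and 909. In WT mice the counts (1325 and 1440) reached 2633 and 2654, in mice labelled Lcn2-/- those (1367 and 1161) reached 2611 and 2080 and fell to 655 lower with a mouse left out, and between controls those (1 and 1) reached 250 and 172. The causes were not tested. Depth limits Serpinb3c, Serpinb3d and Serpinb13, whose folds rest on few counts.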
